A study of Homo sapiens with 39 samples.

Results

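The mRNAs described here encode the proteins of the large subunit of the cytosolic ribosome. They are the 45 genes from RPL3 to RPLP2, matched by gene symbol and chosen with earlier results of these data known. All 45 are listed in the polysome table of 21530 gene symbols and in the RNA immunoprecipitation tables of 26334. In the PAR-CLIP lists, which name 11376 genes, 42 of the 45 have at least 1 cluster.

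The study asked how U2AF1, a splicing factor that reads the AG at intron ends, relates to translation in the cytoplasm, with 39 human samples. Polysome gradient fractions of cultured airway epithelium, human bronchial epithelial cells (HBEC), gave 24 libraries from monosomes, from fractions with 2 to 7 ribosomes and from 1 pooled fraction with 8 to 10. RNA immunoprecipitation (RIP) of U2AF1 in the same cells added 9, so that every line has a U2AF1 precipitate (IP), a precipitate with control antibody (IgG) and its unprecipitated cytosol (Cytosol). Both used 3 lines: wild-type U2AF1 (WT), the U2AF1 S34F point mutation (S34F) and a U2AF1 frame shift (FS), where the labels do not give the allele that carries the frame shift or say whether a line is 1 clone. No treatment or time point is given for any group. PAR-CLIP crosslinks a protein to labelled RNA and leaves T-to-C conversions where it touched. It was run on FLAG-HA tagged U2AF1 in Flp-In-293, a line derived from HEK 293, for cytoplasm of cells with the WT or the S34F protein and for chromatin with the WT protein. Each of these 3 lists pools 2 replicates.

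Large-subunit proteins build the part of the ribosome that joins amino acids and lets the new chain out through an exit tunnel. In vertebrates their mRNAs typically begin with a terminal oligopyrimidine (TOP) tract, a C at the first base followed by further pyrimidines, through which growth signals switch translation of the whole set up or down. Their coding regions are short, which limits how many ribosomes 1 mRNA can carry.

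The start sites are shown first because the tract at the first base is the feature the family is known for. RefSeq start windows (GRCh38.p14) were found for 38 of the 45 genes and run from 10 bases before the annotated start to the base 20 bases into the first exon, 5′ to 3′ on the gene's strand. Capitals mark the run of pyrimidines that begins with a C at the annotated first base. Where a gene had several annotated starts, the one with the longest run is given. The first 5 genes had the lowest positions in the gradient with a start in the table, the next 5 the highest, and the last 3 are a stalk gene, a 5S particle gene and an exit tunnel gene with tracts of different length.
RPLP1 (chr15:69452808-69452837, plus strand): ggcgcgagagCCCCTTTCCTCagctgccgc
RPL13A (chr19:49487598-49487627, plus strand): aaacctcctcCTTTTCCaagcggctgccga
RPLP0 (chr12:120201092-120201121, minus strand): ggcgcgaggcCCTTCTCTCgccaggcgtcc
RPL4 (chr15:66504836-66504865, minus strand): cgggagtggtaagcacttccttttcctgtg
RPL41 (chr12:56116623-56116652, plus strand): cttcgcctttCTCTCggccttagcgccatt
RPL14 (chr3:40457329-40457358, plus strand): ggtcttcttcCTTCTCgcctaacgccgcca
RPL12 (chr9:127451387-127451416, minus strand): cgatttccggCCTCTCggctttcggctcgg
RPL24 (chr3:101686699-101686728, minus strand): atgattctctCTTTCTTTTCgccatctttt
RPL32 (chr3:12840431-12840460, minus strand): ggtgacccttgacctcctgggatcgcatct
RPL27 (chr17:42998409-42998438, plus strand): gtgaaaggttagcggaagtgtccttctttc
RPLP2 (chr11:809957-809986, plus strand): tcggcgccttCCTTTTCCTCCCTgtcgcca
RPL11 (chr1:23691796-23691825, plus strand): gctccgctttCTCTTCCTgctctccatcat
RPL39 (chrX:119791611-119791640, minus strand): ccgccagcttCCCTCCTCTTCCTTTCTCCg

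A C at the annotated start followed by at least 4 pyrimidines, read on the gene's strand only, was found in 28 of the 38 genes (73.7%) against 1404 of 27305 genes in the table (5.1%). With the motif allowed to begin up to 10 bases on both sides of the annotated start, it was found in 35 of 38 (92.1%) against 38.4% of all. RPL4, RPL27 and RPL32, printed above, are among the 10 whose annotated first base does not open such a run. Both ends of the gradient order hold genes with and without the tract: 27 genes with it had a median position of 4.00 and 10 without it 4.04 on the index described below. Across the 37 genes with both values the length of the run and the position had a Spearman correlation of -0.16, a description across genes that share libraries.

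Polysome libraries held 2440145 to 13367574 counts and RIP libraries 2582141 to 29769968. Of the HBEC markers (keratins and other basal epithelial genes), 9 of 9 were detected, with a summed level of 6586 to 14070 CPM (counts scaled to a common library total) in polysome and 13139 to 51135 CPM in RIP libraries. Fibroblast markers (5 genes) summed to 1.98 to 18.1 and 0.22 to 40.6 CPM, endothelial markers (3 genes) to 2.23 to 36.4 and 0 to 10.1 CPM, and leukocyte markers (3 genes) to 50.5 to 181 and 44.9 to 167 CPM. In polysome libraries all markers of these last 3 lists were detected. In RIP, 4 of 5 fibroblast, 2 of 3 endothelial and 2 of 3 leukocyte markers were detected, and PDGFRB, CDH5 and CD3E were at 0 throughout. U2AF1 mRNA in Cytosol stood at 53.9 CPM in WT, 21.4 in S34F and 54.7 in FS, and its mean over the gradient at 44.3, 24.4 and 57.8 CPM. In these bulk samples, fewer cells of a type and less RNA per cell cannot be told apart.

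RPL21 and RPL36A could not be followed reliably. RPL21 was listed at no more than 0.263 CPM in all polysome and RIP libraries, with an annotated length of 4 bases in the RIP tables, and passed no filter on low counts. RPL36A, at 4.69 to 23.8 CPM in the gradients, was below 5 CPM in RIP and was not tested there. This left 44 members tested in the gradients and 43 in RIP. Processed pseudogenes named after members held 1.76 to 4.42% as many counts as the members in the gradients and 4.42 to 5.69% in RIP, so some reads of each gene may be split between copies.

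The cytosolic abundance of the members, on a per-length scale, spanned a wide range. In the authors' RPKM of the 3 Cytosol libraries RPL8, which lies near the catalytic centre, was highest at 1445 ± 141 (SD, n = 3). The stalk scaffold RPLP0 stood next at 1265 ± 106. The ranges of RPL8 and RPLP0 over the lines overlapped, but within each library RPL8 was higher, at 1434, 1592 and 1310 in WT, S34F and FS where RPLP0 had 1225, 1385 and 1185. RPL29 followed at 903 ± 107, below both in each line. RPL36A was lowest at 0.115 ± 0.033. Above it, with RPL21 left aside, RPL22, which binds outside the conserved core of the subunit, stood at 14.0 ± 2.3 and RPL17, at the mouth of the exit tunnel, at 25.4 ± 2.7. The annotated lengths behind these values ran from 392 bases for RPL38 to 5121 for RPL28, and enter each RPKM as its divisor.

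The gradients showed in which fractions, from single ribosomes to heavy polysomes, these mRNAs made up the largest part of the counts. As a share of all counts, the 45 mRNAs were highest in the fraction with 3 ribosomes and lowest in the heaviest fraction. They made up 6.02% ± 1.42 of the counts in monosomes, 7.81% ± 1.71 with 2 ribosomes and 8.75% ± 0.73 with 3 (SD, n = 3 lines). They made up 3.85% ± 1.10 with 4 ribosomes, 5.50% ± 1.26 with 5, 4.09% ± 1.76 with 6, 3.58% ± 0.64 with 7 and 2.34% ± 0.41 with 8 to 10. The lowest share with 3 ribosomes, 8.01% in FS, lay above the highest with 8 to 10 ribosomes, 2.77% in WT. The Wilson 95% interval of these shares reached at most 0.0315 percentage points to each side, which covers counting error only. The share with 4 ribosomes was below that with 5 in each of the 3 lines.

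Gene by gene, most members had their highest CPM at 2 or 3 ribosomes. CPM gives each fraction the same total, so a peak is relative to the other mRNAs of its fraction. It does not say where most copies of an mRNA sit. When each gene's CPM was summed over its gradient, the 3-ribosome fraction held the largest part for 31 of 44 members in WT and for 31 of 44 in FS. Of the 9501 genes that had 500 or more counts in every gradient, 6.17% had their largest part there in WT and 5.35% in FS. In S34F, 22 of 44 members had their largest part with 2 ribosomes, 12 with 3 and 6 (13.6%) in monosomes, against 2.92%, 4.6% and 16.6% of all genes, so the share in monosomes is near that of all genes. For all genes, the most frequent place was the 8 to 10 fraction in each line, at 29.0% in WT, 39.9% in S34F and 29.5% in FS, and no member peaked there. No test was made between lines, because each has 1 gradient. With another scaling (TMM) fewer S34F members peaked with 2 or 3 ribosomes, as given in the section on processing.

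**Figure D1:**
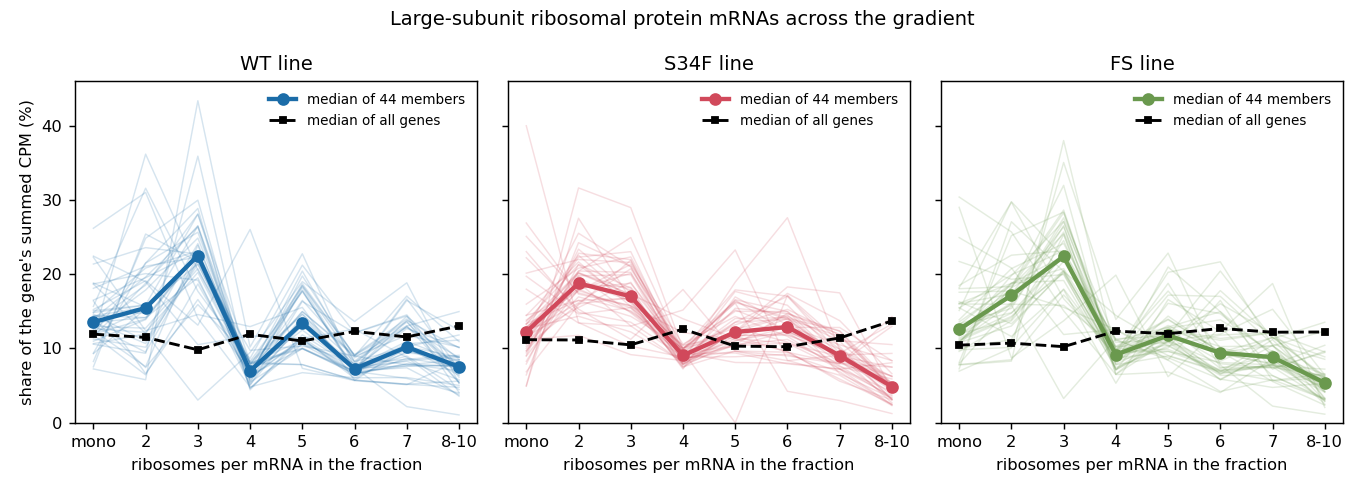
Share of each gene's summed CPM (y axis, percent) in each gradient fraction (x axis, ribosomes per mRNA) for the 3 lines. Thin lines are the 44 members, the thick line is their median and the dashed line the median of all genes. The member median reaches 22.5% in WT and 22.4% in FS with 3 ribosomes and 18.8% in S34F with 2, and lies below the all-gene median with 8 to 10 ribosomes in all 3 lines.

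Against monosomes, and relative to the other mRNAs of each fraction, the fraction with 8 to 10 ribosomes held less of 21 of the 44 members tested and more of none. Across all 15945 genes tested, 21.6% were lower and 28.3% were higher by the same rule (edgeR's quasi-likelihood test with the line as a block, adjusted p under 0.05). The member median was a log2 fold change of -0.91, with a range from -3.03 to 0.28, and the median of all genes was 0.08. It was -0.63 in WT, -1.30 in S34F and -1.09 in FS. Of the 44 members tested, 34 had the same sign in all 3 lines. The 21 called members are among them, but the calls come from these same lines and so favour a shared sign. With 1 line left out, 14 to 25 members were called lower (14 without FS), and 14 without the replicate block. For these settings the share of all genes is not given, so the counts have no background. DESeq2 called 26 lower and none higher (25.7% lower and 27.6% higher of all genes). At an unadjusted p under 0.05, 23 were lower and none higher, or 52.3% lower against 25.4% lower and 31.4% higher of all genes.

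Stalk proteins form the flexible arm of the subunit that recruits translation factors, and the stalk gene RPLP1 had the lowest value of all members. RPLP1 stood at 2330 CPM in WT monosomes, 4781 in S34F and 2442 in FS, and with 8 to 10 ribosomes at 448, 288 and 230 CPM in the same order. All 3 heavy libraries lay below all 3 monosome libraries, and the mRNA fell by 3.03 ± 0.44 on the log2 scale (SE, adjusted p = 2.6e-05). Its partner RPLP0, the scaffold that anchors the stalk, stood at 5910 CPM (WT), 13372 (S34F) and 6229 (FS) in monosomes and at 1502, 1245 and 1058 with 8 to 10 ribosomes. The S34F monosomes held the highest RPLP0 value of the 3 lines, and RPLP0 fell by 2.47 ± 0.36 (adjusted p = 2.8e-05). RPLP2, the other acidic stalk protein, fell by 1.94 ± 0.42 (adjusted p = 6.7e-04). RPL12, which forms the base of the stalk, had a log2 fold change of -0.74 ± 0.38 and was not called (adjusted p = 0.102), so the 4 stalk genes did not all pass the test.

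Around the exit tunnel and the catalytic centre the calls were mixed. RPL39, a very small protein that lines the tunnel, stood at 502 CPM (WT), 721 (S34F) and 488 (FS) in monosomes and at 142, 201 and 65.0 CPM with 8 to 10 ribosomes. It fell by 2.04 ± 0.42 (adjusted p = 4.6e-04), and its groups did not overlap. RPL4, which reaches into the tunnel, fell by 1.47 ± 0.31 (adjusted p = 5.8e-04). RPL17 had -0.79 ± 0.46 and was not called, with 0.10 in S34F against -1.02 in WT. Near the catalytic centre, RPL10, which joins last and completes the subunit, fell by 1.65 ± 0.43 (adjusted p = 0.00278). RPL8 fell by 1.04 ± 0.40 (adjusted p = 0.0334), while RPL3, with -0.30 ± 0.35, was not called (adjusted p = 0.486). The 5S particle genes RPL5 and RPL11, whose proteins also bind the p53 regulator MDM2, had -0.58 ± 0.32 and -0.53 ± 0.33 and were not called.

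Next to RPLP1 in the order was RPL37A, a zinc-binding protein, which stood at 1015 CPM (WT), 909 (S34F) and 679 (FS) in monosomes and at 162, 117 and 77.2 CPM with 8 to 10 ribosomes. It fell by 2.77 ± 0.45 (adjusted p = 7.4e-05), with no overlap between the groups. RPL41, which encodes the shortest protein of the ribosome, fell by 2.36 ± 0.47 (adjusted p = 3.4e-04), RPL13A by 2.00 ± 0.40 (adjusted p = 3.6e-04) and RPL38 by 1.74 ± 0.44 (adjusted p = 0.00241). RPL13A is known for a second role in silencing inflammatory mRNAs. At the other end RPL24 had 0.28 ± 0.35, RPL14 0.06 ± 0.37, RPL27 0.05 ± 0.55, RPL7 -0.07 ± 0.33, RPL32 -0.12 ± 0.44 and RPL10A, a protein of the L1 stalk, -0.18 ± 0.35. None of these 6 was called. RPL22 had -0.57 ± 0.35 and was not called (adjusted p = 0.171).

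**Figure D2:**
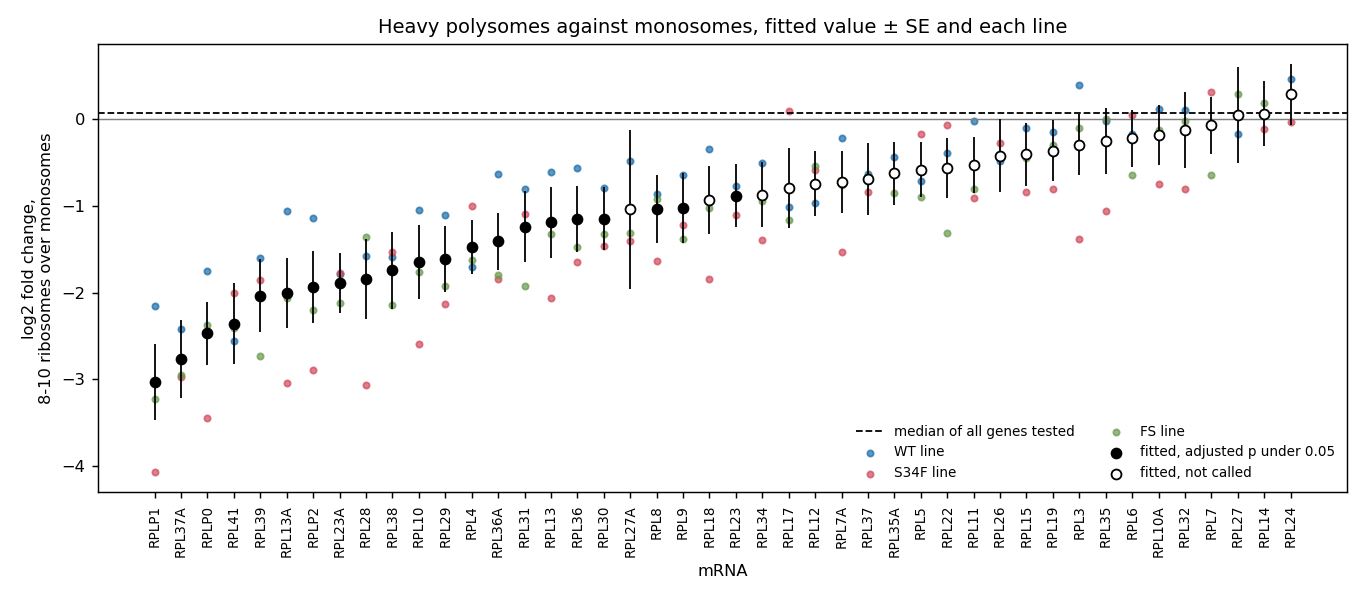
Log2 fold change of the 8 to 10 fraction over monosomes (y axis) for the 44 members tested (x axis). Large circles are fitted values with SE, filled where the adjusted p is under 0.05, small points are the 3 lines, and the dashed line at 0.08 is the median of all genes. Values run from -3.03 for RPLP1 to 0.28 for RPL24, and for the stalk genes RPLP1, RPLP0 and RPLP2 the S34F point is the lowest of the 3 lines.

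The light polysomes, taken as the mean of the fractions with 2 and 3 ribosomes, held relatively more of 5 members than monosomes and relatively less of none. At an unadjusted p under 0.05, 25 were higher and none lower, or 56.8% higher against 13% higher and 4.45% lower of all genes. DESeq2 called 17 higher and none lower (6.2% higher and 0.665% lower of all genes). Of all genes tested, 2.96% were higher and 0.176% were lower. The member median was 0.78 and that of all genes -0.01 on the log2 scale. RPL41 stood at 1662 CPM (WT), 1500 (S34F) and 968 (FS) in monosomes, at 1330, 9632 and 1403 with 2 ribosomes and at 9941, 8824 and 4880 with 3. Its rise by 2.13 ± 0.43 (adjusted p = 0.00878) rested on both fractions in S34F and FS, while WT was higher than monosomes with 3 ribosomes and lower with 2. RPL11 rose by 1.73 ± 0.31 (adjusted p = 0.00431), RPL17 by 1.65 ± 0.43 (0.0325), RPL3 by 1.51 ± 0.33 (0.0109) and RPL7 by 1.37 ± 0.30 (0.0119). RPL3, which shapes the catalytic centre, stood at 1822, 4683 and 2074 CPM in monosomes and at 6145, 7428 and 7729 CPM with 2 ribosomes in WT, S34F and FS, without overlap. The stalk genes had RPLP1 at -0.65 ± 0.34, RPLP2 at -0.03 ± 0.35, RPLP0 at 0.29 ± 0.30 and RPL12 at 0.78 ± 0.34, none called. Of the other structural members, RPL22 had 1.09 ± 0.31, RPL10A 0.92 ± 0.31, RPL5 0.77 ± 0.28, RPL8 0.56 ± 0.35, RPL4 0.47 ± 0.27, RPL10 0.29 ± 0.36, RPL39 0.23 ± 0.35 and RPL38 -0.18 ± 0.37, none called. No member was called without the FS line, 5 were called without the S34F line and 4 without the WT line. Shares of all genes are not given for these runs. None was called without the replicate block, where 3 of all genes were higher.

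From light to heavier polysomes, the mean of 6 and 7 ribosomes against that of 2 and 3, 26 of 44 members were lower and none higher, against 12.8% lower and 20.8% higher of all genes. The member median was -0.96 and that of all genes -0.04. RPL41 changed most: it stood at 1703, 1291 and 1083 CPM with 6 ribosomes and at 499, 913 and 313 CPM with 7 in WT, S34F and FS, against 1330 to 9941 CPM with 2 and 3. It fell by 2.52 ± 0.33 (adjusted p = 8.5e-06). The next lowest log2 fold changes were -1.84 ± 0.28 for RPL13A (3.4e-05), -1.77 ± 0.22 for RPL4 (5.5e-06), -1.53 ± 0.23 for RPL11 (3.3e-05), -1.502 ± 0.25 for RPLP0 (6.4e-05) and -1.43 ± 0.24 for RPL23A (9.0e-05). DESeq2 called 32 members lower and none higher (17.2% lower and 20.3% higher of all genes). At an unadjusted p under 0.05, 31 were lower and none higher, or 70.5% lower against 18.2% lower and 25% higher of all genes. RPLP1 fell by 1.24 ± 0.29 and RPLP2 by 0.76 ± 0.29 (adjusted p = 0.00208 and 0.0446). RPL8 fell by 1.14 ± 0.28, RPL10 by 1.07 ± 0.30, RPL17 by 1.18 ± 0.32 and RPL22 by 1.04 ± 0.25, with adjusted p from 0.00232 to 0.00756. RPL10A had -0.53 ± 0.24 and was not called (adjusted p = 0.0966). RPL5, the partner of RPL11 on the 5S RNA, fell by 1.41 ± 0.23 (5.7e-05) and RPL3 by 1.26 ± 0.25 (5.1e-04). Of the small proteins, RPL38, whose loss in mice alters the body plan, had 0.54 ± 0.31 and RPL39 0.31 ± 0.29, the highest values among members, and neither was called. RPL12 with 0.12 ± 0.27, RPL27 with 0.05 ± 0.39, RPL32 with -0.10 ± 0.31 and RPL35A with -0.25 ± 0.26 completed the upper end. This comparison and the one before share the 2- and 3-ribosome libraries.

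A single number for position, the ribosome index, is the CPM-weighted mean ribosome number over the 8 fractions, with 9 for the pooled 8 to 10. It is relative, because CPM gives each fraction the same total. The members had medians of 3.98 in WT, 4.05 in S34F and 3.94 in FS, below the all-gene medians of 4.76, 4.94 and 4.82. Below the all-gene median of their line stood 43 of 44 members in WT and 44 of 44 in S34F and FS.

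Lowest was RPLP1, at 3.08 in WT, 3.03 in S34F and 2.97 in FS, a mean of 3.03 ± 0.05 (SD, n = 3). Then came RPL13A at 3.30 ± 0.07, RPLP0 at 3.30 ± 0.03, RPL4 at 3.47 ± 0.24 and RPL41 at 3.60 ± 0.24. RPLP1 lay below RPL13A and RPLP0 by more than their spread, while the order of RPL13A and RPLP0, and that of RPL4 and RPL41, changed between lines. Highest were RPL27 at 4.59 ± 0.25, RPL32 at 4.50 ± 0.31, RPL24 at 4.47 ± 0.11, RPL12 at 4.46 ± 0.15 and RPL14 at 4.36 ± 0.08, whose values overlapped. The annotated length of the gene model and the mean index had a Spearman correlation of -0.22 over the 44 members.

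**Figure D3:**
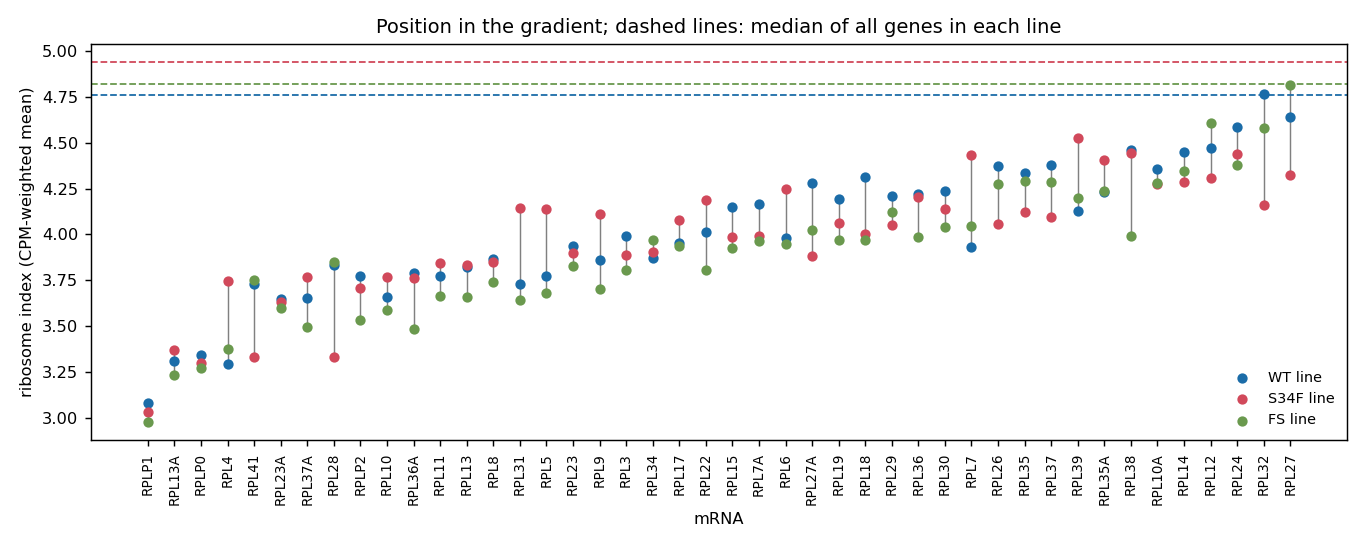
Ribosome index (y axis, CPM-weighted mean ribosome number; the axis does not start at 0) of the 44 members (x axis) in the 3 lines, ordered by their mean. Dashed lines are the medians of all 9501 genes per line. RPLP1 is lowest at a mean of 3.03, and 1 point, RPL32 in WT at 4.76, reaches the all-gene median of its line.

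Between the lines the index moved by small steps. The median difference of S34F minus WT was -0.04 over members (medians 4.05 and 3.98) and 0.08 over all genes. Of members, 16 (36.36%) were above and 28 below 0, and of all genes 58.21% were above. For FS minus WT the median difference was -0.10 over members (3.94 and 3.98) and 0.09 over all genes. Here 9 members (20.45%) were above and 35 below 0, against 62.84% of all genes above. For S34F minus FS the median difference was 0.09 over members and 0.01 over all genes, with 31 members (70.45%) and 50.92% of all genes above 0. Only RPL28 stood more than 0.5 from both other lines, at 3.33 in S34F against 3.83 in WT and 3.85 in FS. With TMM-scaled CPM the member medians were 4.189 in WT, 4.157 in S34F and 3.937 in FS, so the order of the WT and S34F medians depends on the scaling. The widest single differences between S34F and WT were RPL32, lower in S34F by -0.60, and RPL7, higher by 0.50. With 1 gradient per line these differences have no replicate check.

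Other mRNAs of the translation machinery give the setting. Of 32 small-subunit mRNAs tested, 18 were lower with 8 to 10 ribosomes than in monosomes and 1 was higher (median -1.13), with RPS2 at -2.68 and RPS12 at -2.66 lowest and RPS26 at 1.93 the exception. Of 18 other mRNAs with a known TOP start, 9 were lower and 1 was higher (median -0.91): PABPC1, the poly(A)-binding protein, fell by 2.70 and the elongation factor EEF2 by 2.19, while NPM1, a nucleolar chaperone, rose by 1.17. Assembly factors of the large subunit lay on the other side, with 21 of 28 higher and none lower (median 1.14). RRS1, which brings the 5S particle to the nascent subunit, rose by 2.51 and BRIX1 by 2.29. Of 7 paralogues of members tested, RPL26L1 rose by 1.66 and RPL39L fell by 1.77, and reads of such copies may be shared with RPL26 and RPL39.

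In the other gradient comparisons the lists moved as follows. With 2 and 3 ribosomes against monosomes, 5 of 32 small-subunit, 2 of 18 TOP, 2 of 7 paralogue and 1 of 28 assembly mRNAs were higher and none lower, with medians of 0.87, 0.59, 0.59 and 0.12. RPS27 rose by 1.52 and RPS23 by 1.39. With 6 and 7 against 2 and 3 ribosomes, 22 of 32 small-subunit mRNAs were lower and 1 higher, and 16 of 18 TOP mRNAs were lower and none higher, with medians of -0.95 and -1.37. Of the assembly factors, 4 were higher and 5 lower (median -0.02), and of the paralogues 1 was higher (median 0.32).

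The RIP libraries addressed which of these mRNAs come down with U2AF1 in the cytosol, and the calls depended on the lines and the block used. The members made up 6.90% ± 0.38 of the counts in IP, 4.64% ± 1.00 in IgG and 5.04% ± 0.61 in Cytosol (SD, n = 3 lines). The lowest IP share, 6.54% in WT, lay above the highest of the other groups, 5.74% in S34F Cytosol. Against IgG, 4 of 43 members were higher and none lower (percent of all 11612 genes tested: 0.224% higher and 1.12% lower). The member median was 0.34 on the log2 scale against 0.03 for all genes, and 21 of 43 members were higher and none lower at an unadjusted p under 0.05, against 5.72% higher and 7.17% lower of all genes. DESeq2 called 9 higher and none lower (1.81% and 3.67% of all genes).

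RPL5, the 5S particle protein, stood at 852 CPM in WT IP, 1064 in S34F IP and 871 in FS IP. In IgG it stood at 341, 546 and 385 CPM, and in Cytosol at 463, 544 and 404 CPM. The 3 IP libraries lay above the 6 others, and RPL5 rose by 0.98 ± 0.17 in IP against IgG (adjusted p = 0.0107). RPLP0 stood at 8584, 8648 and 8161 CPM in IP, 3429, 4763 and 4915 in IgG and 4880, 5843 and 4792 in Cytosol, in the order WT, S34F and FS. It rose by 0.79 ± 0.12 (adjusted p = 0.00283), again without overlap. RPL3, beside the catalytic centre, stood at 5073, 5220 and 4589 CPM in IP and at 1984, 3935 and 2455 in IgG, and rose by 0.71 ± 0.14 (adjusted p = 0.0207). RPL6, whose protein sits on the outer surface of the subunit, stood at 1947, 1801 and 1662 CPM in IP and 920, 1135 and 898 in IgG, and rose by 0.70 ± 0.15 (adjusted p = 0.0258).

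Other members of the same structural groups were not called against IgG. RPL11, the partner of RPL5, had 0.17 ± 0.22 (adjusted p = 0.814), RPLP1 0.14 ± 0.19, RPLP2 0.08 ± 0.16 and RPL12 0.08 ± 0.19. RPL7, with 0.88 ± 0.24, had 0.10 in S34F against 1.07 in WT and 1.56 in FS and was not called (adjusted p = 0.0982). RPL8 had 0.13 ± 0.12, RPL10 0.51 ± 0.14, RPL4 0.34 ± 0.13, RPL17 0.58 ± 0.42, RPL39 -0.01 ± 0.23, RPL10A 0.52 ± 0.14, RPL22 0.39 ± 0.32, RPL38 0.29 ± 0.24 and RPL41 0.17 ± 0.16. The lowest were RPL35A at -0.23 ± 0.20 and RPL34 at -0.18 ± 0.23.

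Called higher were 0 members without the WT line, 2 without the FS line and 5 without the S34F line. Shares of all genes are not given for these runs. With no replicate block 0 members were called, where no gene of the whole table was higher either. Without the WT line RPL5 had 0.94, RPL6 0.64, RPLP0 0.66 and RPL3 0.52.

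Against Cytosol, 5 of 43 members were higher in IP and none lower, with 0.491% of all genes higher and 0.0431% lower. DESeq2 called 12 higher and none lower (0.766% and 0.456% of all genes). At an unadjusted p under 0.05 the count was 21 higher and none lower, against 3.07% higher and 4.26% lower of all genes. RPL6 stood at 793, 875 and 847 CPM in Cytosol of WT, S34F and FS and rose by 1.08 ± 0.15 (adjusted p = 6.9e-04). RPL5 rose by 0.96 ± 0.17 (0.0117), RPL7A by 0.94 ± 0.17 (0.0103), RPL10A by 0.88 ± 0.14 (0.00390) and RPLP0 by 0.69 ± 0.12 (0.00765). RPL7A and RPL10A both contact ribosomal RNA away from the catalytic centre. RPL7A stood at 2835, 3363 and 2733 CPM in IP, 1279, 1718 and 1993 in IgG and 1540, 1296 and 1770 in Cytosol, so IP was highest in each line. RPL3 had 0.63 ± 0.14 (0.0632) and was not called. RPL10A stood at 1735, 2456 and 1841 CPM in IP, 964, 1531 and 1268 in IgG and 924, 1253 and 1025 in Cytosol. RPL34 with -0.25 ± 0.23 and RPL12 with -0.15 ± 0.19 were the lowest, and RPL8 had 0.00 ± 0.12. Without the FS line 3 members were called, and without the replicate block 1, RPL6, with no share of all genes given for either. Of the other structural members, RPL17 with 0.81 ± 0.41, RPL38 with 0.56 ± 0.24, RPL10 with 0.46 ± 0.14, RPL22 with 0.40 ± 0.31, RPL41 with 0.40 ± 0.16 and RPL4 with 0.35 ± 0.13 were not called. RPLP1 had 0.23 ± 0.19, RPL39 0.20 ± 0.23, RPL11 0.19 ± 0.22 and RPLP2 0.10 ± 0.16. This comparison shares its IP libraries with the one before.

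**Figure D4:**
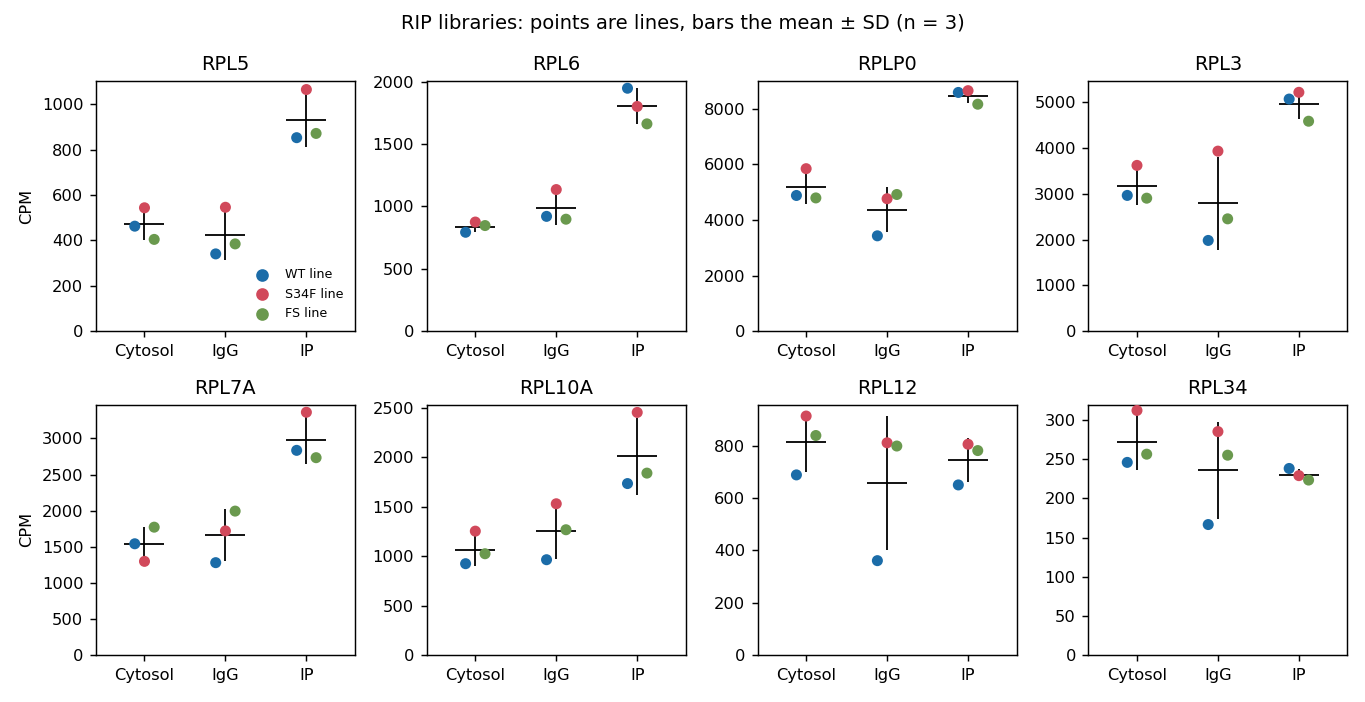
CPM (y axis, from 0) of 8 members in Cytosol, IgG and IP libraries (x axis). Points are the 3 lines and bars the mean ± SD (n = 3). The 6 members called in either comparison, RPL5 to RPL10A, have all 3 IP points above Cytosol and IgG, while the 3 groups of RPL12 overlap and the IP points of RPL34 lie below its Cytosol points and within the range of IgG. Such separation is not limited to called members. All 3 IP points lay above IgG for 24 of the 45 members and above Cytosol for 24. The share of all genes is not given.

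IgG against Cytosol measures the background of the precipitation itself. No member was called in either direction by edgeR, against 0.663% of all genes higher and 0.0172% lower, 3 members (6.98%) were higher at an unadjusted p under 0.05 against 4.21% of all genes, and DESeq2 called 1 higher (2.33%) against 1.72%. These shares lie near the background. The member median was 0.03 with TMM scaling and -0.11 with total-count scaling, so its sign depends on the scaling. RPL23A was highest at 0.54 ± 0.17 (adjusted p = 0.360), followed by RPL6 at 0.37 ± 0.15 and RPL10A at 0.37 ± 0.14. RPL5 had -0.02 ± 0.17, RPL3 -0.08 ± 0.14 and RPLP0 -0.10 ± 0.12, and RPL13 was lowest at -0.24 ± 0.12.

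Of the other lists, 5 of 32 small-subunit mRNAs were higher in IP than in IgG and 7 of 32 than in Cytosol, with none lower (medians 0.29 and 0.40). RPS6 rose by 0.97 and 1.25 and RPS3A by 0.89 and 0.97 in the comparisons with IgG and Cytosol. Of the TOP list, 2 of 18 were higher in each (medians 0.49 and 0.42), EEF1A1 and EIF3F against IgG and EIF3L and EEF1A1 against Cytosol. Of 28 assembly factors and 6 paralogues 0 were called by edgeR or DESeq2. At an unadjusted p under 0.05, 1 assembly factor was higher and 1 lower against IgG, 1 higher and 3 lower against Cytosol, and 0 paralogues in both. In IgG against Cytosol 0 genes of the 4 lists were called by edgeR or DESeq2, with medians of 0.12, -0.18, -0.44 and -0.28 for small-subunit, TOP, assembly and paralogue mRNAs. At an unadjusted p under 0.05, 2 small-subunit mRNAs and 1 assembly factor were higher and 1 small-subunit mRNA was lower.

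PAR-CLIP gave the places on these transcripts where reads formed U2AF1 clusters. The lists hold 1 pooled value each, so no test was made. For the 5 members with the most reads, the most-read cluster of at most 30 bases is shown from chromatin. A second is shown from the cytoplasmic list where that cluster had more reads. These clusters are short enough to print, and not each of them need be a contact. They are printed 5′ to 3′ on the transcript strand. Positions are the deposited ones, and their genome build is not given in the sources used here. T-to-C fractions in the order RPL5, RPL4, RPL27, RPL6 and RPL18 were 0.934, 0.862, 0.734, 1.0 and 1.0 in chromatin. In cytoplasm they were 0.25, 0.577, 0.8, 0.75 and 0.391, each below the median of its list, 0.837 with WT and 0.833 with S34F protein. Capitals mark the longest run of C and T, wherever it lies in the cluster. At a 3-prime splice site such a tract precedes the AG, but in the chromatin clusters of RPL6 and RPL18 the marked run follows CAG.
RPL5, chromatin WT, intron (chr1:93301637-93301663, plus strand, 191 reads): aaaTTTTCTTTTCCagatgtcagtggt
RPL5, cytoplasm S34F, coding (chr1:93307348-93307372, plus strand, 53 reads): gCTCagaagaaggatcgggtagctc
RPL4, chromatin WT, intron (chr15:66794270-66794294, minus strand, 63 reads): aaaagTTTCaggataaccaagtaag
RPL4, cytoplasm WT, intron (chr15:66795273-66795301, minus strand, 26 reads): aCTTTTTTTTgtcttgaagagaaggggct
RPL27, chromatin WT, 5-prime UTR (chr17:41150570-41150595, plus strand, 109 reads): aTTCCTTCCCTaggtctctggcggct
RPL27, cytoplasm S34F, intron (chr17:41151574-41151599, plus strand, 5 reads): aTCTCCTgagactgatctctggagtt
RPL6, chromatin WT, intron into coding (chr12:112844129-112844155, minus strand, 63 reads): aacttacagagggtggTTTTCCTgaag
RPL6, cytoplasm WT, 5-prime UTR (chr12:112847401-112847428, minus strand, 8 reads): ggaagccgggaccttaaTTCTCTTTCCC
RPL18, chromatin WT, intron (chr19:49119666-49119688, minus strand, 16 reads): ttttttggcccagCTTCCTTgct
RPL18, cytoplasm S34F, coding (chr19:49120649-49120678, minus strand, 46 reads): atacaggTTTCTggccagaagaaccaactc

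In the printed chromatin clusters of RPL5, RPL27 and RPL4 and in the cytoplasmic coding cluster of RPL5 the marked run is followed directly by AG. The runs differ in length, with 11, 10, 4 and 3 pyrimidines. Of the 80 member clusters in chromatin that span an intron and the exon after it, 54 (67.5%) held a run of at least 6 pyrimidines and 55 (68.8%) the letters CAG on the transcript strand, against 61.9% and 70.0% of 16418 such clusters over all genes. TAG, which can occur beside CAG, was in 43.8% of the member clusters and 47.3% of all.

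In chromatin 40 of 45 members had a cluster (88.9%), against 83.3% of the 11376 gene names in the 3 lists. In cytoplasm 33 members (73.3%) had one with WT protein, against 66.5% of names, and 32 (71.1%) with S34F protein, against 60.8%. These shares have unlike bases. Each of the 11376 names has a cluster in some list, while the 45 members include 3 with none, which lowers the member shares. Whether members have clusters more often than other genes was therefore not tested. In both cytoplasmic lists 27 members had a cluster, 6 with WT protein alone and 5 with S34F protein alone. RPL7A, RPL10 and RPL36A had none in any list, and 4 members had clusters in chromatin alone. With at least 20 reads per cluster the S34F count was 21 and the WT counts were 25 in cytoplasm and 38 in chromatin.

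Member clusters numbered 250 in chromatin, with 19687 of 4723555 reads (0.417%, Wilson 95% interval 0.411 to 0.423). In cytoplasm there were 79 with WT protein, holding 3400 of 526075 reads (0.646%, 0.625 to 0.668), and 92 with S34F protein, holding 2106 of 658110 reads (0.320%, 0.307 to 0.334). The intervals cover counting error only, and the 2 pooled replicates give no spread. The median T-to-C fraction of member clusters was 0.998 in chromatin, where all clusters had 1.0. In cytoplasm it was 0.455 with WT protein and 0.61 with S34F protein, against 0.837 and 0.833 for all clusters, so the median of the cytoplasmic member clusters lay below that of the lists as a whole.

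Chromatin reads of members lay mainly at the ends of introns. Clusters that span an intron and the next exon made up 32.0% of member clusters, against 18.7% of the clusters of all named genes. They came from 35 of the 45 genes and held 60.8% of member reads, for which no all-gene share is given. Of these 11964 reads RPL5 held 2823, RPL4 2448 and RPL27 1014. Intronic clusters made up 42.0% against 31.4%, and coding clusters 8.4% against 34.4%. In cytoplasm the junction share was 7.59% with WT protein (6 clusters) and 10.9% with S34F protein (10 clusters), against 3.03% and 3.65% of all. Coding clusters made up 17.7% and 25% of the member clusters against 35.5% and 28.7% of all, and 3-prime UTR clusters 24.1% and 16.3% against 16.5% and 18.7%.

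**Figure D5:**
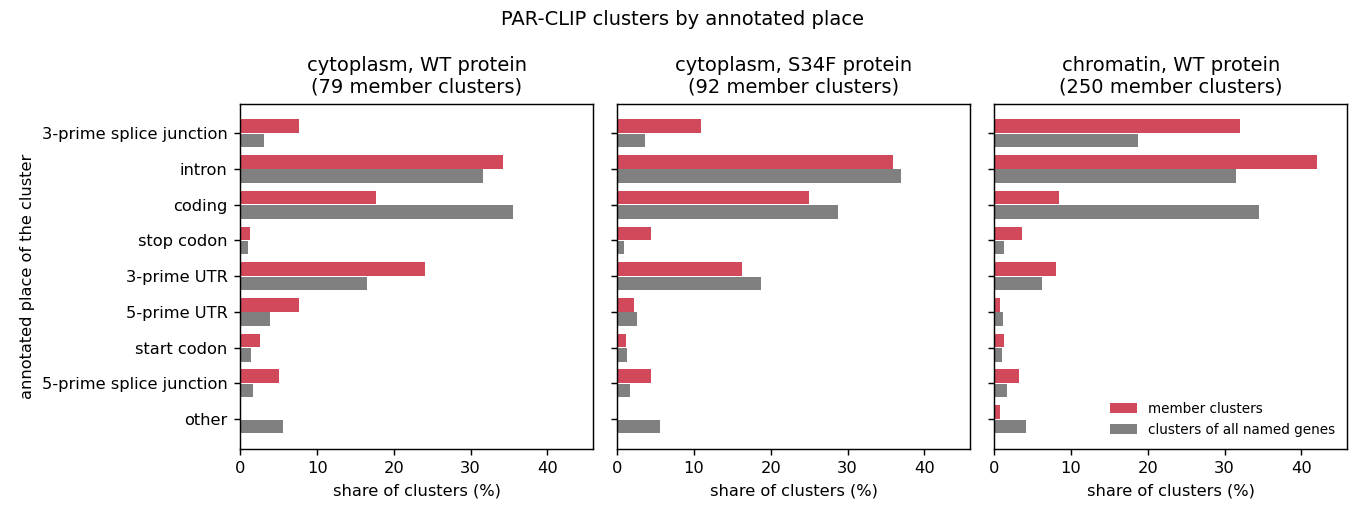
Share of PAR-CLIP clusters (x axis, percent) by annotated place (y axis) for members and for all named genes in the 3 lists. In chromatin, member clusters are more often at 3-prime splice junctions (32.0% against 18.7%) and less often coding (8.4% against 34.4%).

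How far 1 site held a member's reads differed between members. RPL5 had 3476 chromatin reads in 17 clusters, 2590 of them in 1 cluster of 44 bases across an intron end (T-to-C fraction 0.992), and 234 reads in 10 clusters with S34F protein in cytoplasm. It had no cluster with WT protein in cytoplasm. RPL4 had 2744 chromatin reads in 16 clusters, 2448 of them in 8 clusters at intron ends and 1132 in the largest, with 293 reads in 5 clusters and 34 in 1 cluster in cytoplasm with WT and S34F protein. RPL27 had 1665 chromatin reads in 11 clusters, 956 of them in 1 cluster at an intron end, and 51 reads in 3 clusters with S34F protein in cytoplasm. RPL6 had 1469 in 17 clusters, 674 of them in 1 cluster annotated to a long noncoding RNA intron and exon, and 8 and 36 reads in cytoplasm with WT and S34F protein. RPL18 was the member with the most cytoplasmic reads, 414 in 3 clusters with WT and 255 in 5 clusters with S34F protein, beside 606 in chromatin. Its largest cytoplasmic cluster, with 317 reads, spanned the stop codon and had a T-to-C fraction of 0.17. RPL23A (1031 reads over the 3 lists), RPL17 (856), RPL11 (835), RPL23 (759) and RPL37 (728) completed the 10 most-read members, and 844 of the RPL23A reads lay in 1 chromatin cluster at the stop codon.

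Overlaps of positions were counted in both directions. Of the 79 WT cytoplasmic member clusters, 14 (17.7%) overlapped a cluster of the S34F cytoplasmic list by at least 1 base on the same strand, and 13 of the 92 S34F clusters (14.1%) overlapped one of the WT cytoplasmic list. With chromatin, 14 of 79 WT (17.7%) and 24 of 92 S34F clusters (26.1%) overlapped. Of the 250 chromatin clusters, 5.6% overlapped the WT and 9.6% the S34F cytoplasmic list. Overlap was not counted for the clusters of all genes, so none of these shares can be called particular to the members. Of the members called in RIP, RPLP0 had 31 reads in 2 clusters with WT protein in cytoplasm, RPL3 had 89 in 4, RPL10A had 111 in 4, RPL6 had 8 in 1, and RPL5 and RPL7A had none. RIP was done in HBEC and PAR-CLIP in Flp-In-293 cells, so the values stand side by side without a comparison.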

How the data were processed

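Gradient and RIP libraries were compared through the authors' expected counts per gene symbol (not all of them whole), rounded for the fits. TopHat is named in the submitters' processing notes. Which counting tool was used, with which strand setting and on which genome build, is not given in the sources used here. RPKM, as the authors give it beside the RIP counts, served only for levels between genes. Each PAR-CLIP list gives, per the file headers, a count of reads and of conversions and the T-to-C fraction of every cluster. The authors pooled 2 replicates per list, per the series design text.

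Fits used edgeR 4.0.16 (limma 3.58.1, R 4.3.3) with filterByExpr, TMM and the quasi-likelihood test, Benjamini-Hochberg adjusted p under 0.05, over all 24 polysome libraries (15945 genes) or all 9 RIP libraries (11612 genes), with the line as a block. The SE is the log2 fold change divided by the root of the F statistic. The 3 lines are the only replication: p-values measure the spread between these samples, with genotype differences in it. Pairing comes from the shared line: deviations of libraries of 1 line correlated at a median r of 0.27 (84 pairs) in gradients and 0.05 (9 pairs) in RIP. The common dispersion was 0.108 and 0.487. A count of 0 allows up to 3 counts, 0.224 to 1.23 CPM in gradients and 0.101 to 1.16 CPM in RIP. Scripts were tested on simulated data with 200 changed genes. Alternatives were total-count scaling, DESeq2 1.42.0, no filter, no block, leaving out each line, and leaving out genes with isolated zeros. For the index they were other weights, minimums and scalings, and for clusters stricter reads, conversions and annotation. TMM-scaled peak counts were added after seeing the data.

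Named genes are all members called, up to 12 per comparison, otherwise the 6 highest and 6 lowest, plus 16 structural members, the 5 highest and 5 lowest by index, the 10 members with most PAR-CLIP reads and 2 called genes per direction of each list. Members and lists were chosen with earlier results of these data known.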

Additional observations from a re-analysis of the deposited data

Results flagged for a closer look

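For 2 members the lines moved in opposite directions by more than 0.5 on the log2 scale on each side, with 1 difference per line, so the difference between lines was not tested. RPL27 with 2 and 3 ribosomes against monosomes had -0.59 in WT (-0.585), 1.69 in S34F (1.689) and -0.60 in FS (-0.598). Behind this stand 492 CPM (WT), 238 (S34F) and 239 (FS) in monosomes, 198, 642 and 301 CPM with 2 ribosomes, and 498, 546 and 61.9 CPM with 3. RPL7 in IgG against Cytosol had -0.08 in WT (-0.083), 0.73 in S34F (0.732) and -0.58 in FS (-0.583), from 287, 748 and 279 CPM in IgG and 343, 490 and 462 CPM in Cytosol. Groups of 3 libraries are too small for a check of single outlying samples.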

How the results depend on the processing

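Of 61 calls of single members, all kept their direction in every alternative run, and all kept their call with total-count scaling, with DESeq2 and without genes with isolated zeros. Without a filter 58 kept their call, with no replicate block 33, and without the FS, S34F or WT line 37, 52 and 47. The median over all genes moved by over 0.1 with total-count scaling in 2-3 ribosomes against monosomes (-0.23 against -0.01), IP against IgG (0.20 against 0.03) and IgG against Cytosol (-0.25 against -0.11).

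Members higher with 2-3 ribosomes than in monosomes numbered 8 with total-count scaling, 17 with DESeq2, 14 without a filter, 8 without genes with isolated zeros and 0 with no replicate block, and 0 to 5 when 1 line was left out. For IP against IgG they numbered 9, 9 and 8 with total-count scaling, DESeq2 and no filter, 0 with no replicate block, and 0 to 5 when 1 line was left out. For IP against Cytosol they numbered 12 with DESeq2, 9 without a filter and 1 with no replicate block, and 3 to 4 when 1 line was left out, while the median was 0.359 to 0.503. For IgG against Cytosol DESeq2 called 1 member, and the median was -0.109 with total-count scaling and -0.013 to 0.131 when 1 line was left out. With DESeq2, 6.2% of all genes were higher with 2-3 ribosomes than in monosomes. The DESeq2 shares were 1.81% in IP against IgG, 0.766% in IP against Cytosol and 1.72% in IgG against Cytosol. For most other settings, here and above, the share of all genes is not given, so those member counts have no background beside them. The cause of these changes was not tested.

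Median indices of WT, S34F and FS were 3.907, 3.996 and 3.878 with a weight of 8 for the heaviest fraction, and 4.49, 4.451 and 4.345 without monosomes, with all-gene medians above them in each case. With TMM-scaled CPM they were 4.189 in WT, 4.157 in S34F and 3.937 in FS. Members peaking with 2 or 3 ribosomes numbered 37, 34 and 35 by CPM and 36, 27 and 39 with TMM scaling. With at least 20 reads per cluster 21 members had a cluster in the S34F cytoplasmic list. With 1 gradient per line no difference between lines could be tested, and a gene at 0 in the shallowest RIP library could stand at up to 1.16 CPM.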

Other observations

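Single libraries broke the profile of some members. In 6 cases a member's CPM in 1 fraction was under 1 in 3 of that in both neighbouring fractions of its line, which was looked for after the profiles were seen. The share of all genes with such a dip is not given, so the dips cannot be called particular to the members. Isolated zeros in the gradients were found in 122 genes, with 1 member among them. RPL27A was listed at 0 with 5 ribosomes in S34F, between 550 CPM with 4 and 984 CPM with 6. RPL27 stood at 61.9 CPM with 3 ribosomes in FS, between 301 and 214 CPM, and RPL38 at 38.9 CPM with 3 ribosomes in WT, between 153 and 120 CPM. RPL39 stood at 176 CPM with 4 ribosomes in WT, between 679 and 569 CPM, and at 168 CPM in FS, between 564 and 523 CPM. RPL17 stood at 19.1 CPM with 4 ribosomes in WT, between 128 and 65.0 CPM.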
